A study of Rattus norvegicus with 9 samples.

Results

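The C/D box small nucleolar RNA (snoRNA) genes of blood CD4+ T cells were described in 3 groups of rats. A gene was taken where its name in the deposited tables began with SNORD and its level, summed over transcripts of the same name and locus, averaged at least 1 TPM over the 9 libraries. TPM is a unit corrected for transcript length and library depth. Of 254 such genes, 100 met the limit, among 36860 gene units in all, and 14175 units of any kind met it and were tested. Of the other SNORD genes 60 were listed at 0 in all libraries and 94 lay between 0 and 1 TPM. SNORD127, at a mean of 1.07 TPM, was just inside the limit, and SNORD98 at 0.98 and SNORD121A at 0.954 TPM were just outside it. The limit could be met through the groups in which a gene was high. Among others, SNORD34, SNORD51, the SNORD14 gene of chromosome 1 and both SNORD50 genes averaged under 1 TPM in the libraries of the model group.

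The combination group was SD rats with CIA, read here as collagen-induced arthritis, that had received a combination of compounds for 4 weeks, which the labels do not name. The model group was CIA rats without it, the normal group was normal rats, and no vehicle is described for either. Each group had 3 libraries of total RNA from CD4+ T lymphocytes of peripheral blood, rats were 8 to 10 weeks old, and how the cells were selected is not stated. The labels do not say that each library came from its own animal, so the p-values reflect only the spread of these libraries. Whether the combination libraries, which the file headers list under other sample names, were also processed apart from the rest cannot be told apart from the compounds.

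C/D box snoRNAs are short nucleolar RNAs that pair with ribosomal RNA and guide the methylation of a ribose by fibrillarin, with Nop56, Nop58 and Snu13 as the other core proteins of the particle. A few, such as SNORD14 (U14) and SNORD22 (U22), are needed for cleavage of the precursor of ribosomal RNA. In vertebrates most are cut from introns of longer genes, many of which encode ribosomal proteins or translation factors, after splicing, debranching of the intron and trimming by exonucleases. Other hosts, such as Gas5, encode no known protein, and their spliced RNA is known to be unstable.

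The aligned depth was 7.52 to 10.1 gigabases a library, computed from the ratio of coverage to FPKM. Markers of the labelled cell type were abundant: 5 of 6 CD4+ T cell markers were found, and their summed level was 1260 to 1700 TPM in combination, 1010 to 1280 TPM in model and 1390 to 2070 TPM in normal libraries. The sums hide differences between markers. Cd4 was at 142, 121 and 98.1 TPM in combination, 76.5, 186 and 99.1 TPM in model and 202, 230 and 235 TPM in normal libraries. Cd3d averaged 450, 343 and 441 TPM in these groups, and Cd3g ranged from 190 to 879 TPM over the libraries. None of the 5 passed in any comparison (limma, adjusted p under 0.05). Other cell types left RNA too. The 5 erythroid markers found summed to 261 to 865, 2410 to 16200 and 58.9 to 1120 TPM in the combination, model and normal libraries. Monocyte markers (6 of 6 found) summed to 349 to 704, 70.3 to 188 and 29.0 to 174 TPM, and platelet markers (4 of 4) to 66.3 to 107, 17.9 to 32.2 and 10.3 to 26.5 TPM. Neutrophil markers (2 of 2) summed to 3.86 to 6.62, 0.284 to 8.26 and 13.5 to 32.3 TPM, and B cell markers (4 of 4) to 5.83 to 14.3, 2.67 to 9.18 and 3.93 to 25 TPM. None of the markers found had a mean of 0. The erythroid sums thus moved with the model group, and the monocyte and platelet sums with the combination group.

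The 100 genes carried 70 distinct names, 19 of which stood for at least 2 genes. They were 61 to 148 bases long (median 77), and 98 lay within an intron of a longer transcript on the same strand. The other 2, SNORD33 and 1 of the SNORD88 genes, are listed as 2 transcripts each and were not placed by intron. A named host gene of at least 300 bases contained 73 of them, in 40 hosts, and the other 27 lay within 8 multi-exon loci that the authors' assembly left without a name. Hosts or loci with at least 3 members numbered 12 and held 52. The 3' end of the snoRNA was a median of 83.5 bases from the next exon (interquartile range 72 to 189), and 58 of 98 lay 50 to 100 bases from it. The H/ACA box snoRNA genes, the other large class, which guide pseudouridine formation, were a median of 310 bases from it, and 20 of 79 lay in that window. In the values used here, reads of unspliced host RNA or of cut-out introns cannot be told apart from reads of the snoRNA that lies there.

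The largest clusters were in the unnamed loci. One on rn6 chromosome 13 (78851661 to 78855928, plus strand) held 9 members, SNORD24, SNORD44, SNORD47, SNORD74, SNORD75, SNORD77, SNORD78, SNORD79 and SNORD81. RefSeq (GRCr8) places Snord78 and Snord81 within Gas5. The other, on chromosome 1 (224921137 to 224924605, plus strand), held 8 members, SNORD22 and SNORD25 to SNORD31, a set that lies within Snhg1 in mouse and human. RefSeq places Snord26, Snord27 and Snord30 within a gene known only by a LOC number. Rpl4 held 5 members, and each of 2 near-identical Rpl7a copies on chromosome 3 another 4. Reads of the Rpl7a copies may have been split between them, as may those of the pairs of SNORD50, SNORD93 and SNORD103 genes, and their values are uncertain for that reason. Each copy enters the counts below as a member of its own, so such counts are not all of independent genes.

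The 60 bases before the RefSeq start are given for 4 hosts whose members are described below, with the longest run of pyrimidines (C or T) in capitals, to show the stretch in front of these genes. It holds no base of the transcript and says nothing of how the transcript begins. An uninterrupted run of at least 8 C or T on the strand of the gene was present in 9 of 36 hosts matched in the RefSeq promoter table, Gas5 included, and in 24.8% of all 33469 promoters there.
Gas5 (GRCr8 chr13:75836903-75836962, plus strand): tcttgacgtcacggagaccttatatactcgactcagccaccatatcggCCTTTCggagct
Rpl4 (GRCr8 chr8:73566417-73566476, plus strand): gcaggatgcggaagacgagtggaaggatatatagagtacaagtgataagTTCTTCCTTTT
Rpl13a (GRCr8 chr1:104748914-104748973, minus strand): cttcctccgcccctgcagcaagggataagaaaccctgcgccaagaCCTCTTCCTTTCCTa
Hspa8 (GRCr8 chr8:50080454-50080513, plus strand): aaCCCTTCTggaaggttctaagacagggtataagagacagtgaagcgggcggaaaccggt

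Levels ranged from a mean of 1.07 to 109 TPM (median 8.17). SNORD29, of the chromosome 1 locus, was the most abundant. Its level was 137, 126 and 109 TPM in combination, 70.7, 56.3 and 58.6 TPM in model and 176, 158 and 91.5 TPM in normal libraries, and each model value lay below each of the others. The next in mean level were SNORD39, SNORD22, SNORD58 in Rpl17, SNORD28, SNORD24 of the chromosome 13 locus, SNORD96 in Rack1, SNORD78, SNORD37 in Eef2 and SNORD46. Families of C/D box genes that are best known from brain were below the limit. The 35 SNORD113 genes had means of up to 0.595 TPM, the 36 SNORD115 genes of up to 0.357 TPM and the 29 SNORD116 genes of up to 0.787 TPM.

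The summed level of the 100 genes was 1980, 1450 and 1480 TPM in combination libraries 1 to 3, 922, 817 and 1060 TPM in model libraries 1 to 3, and 1990, 2110 and 1550 TPM in normal libraries 1 to 3. All 3 model sums lay below the 6 others, while the combination and normal sums overlapped. A model library held the lowest value of 84 members, model 2 for 47 of them, model 1 for 30 and model 3 for 7. No model library held the highest value of any member, which was in combination 1 for 38 and in normal 2 for 36. By group mean, 54 members ran from model over combination to normal, 38 from model over normal to combination, and 8 otherwise.

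**Figure D1:**
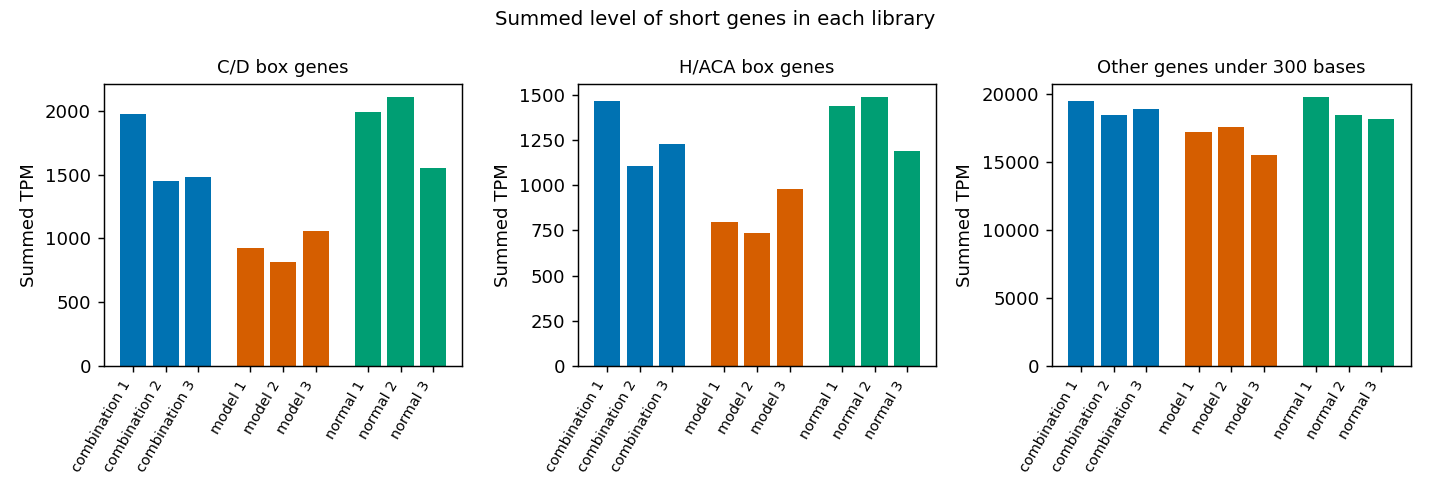
Summed TPM (vertical axis) of the 100 C/D box genes, all H/ACA box genes and all other gene units under 300 bases. The limit of 1 TPM was applied to the C/D box genes only. Each library has 1 bar (combination blue, model orange, normal green). C/D box sums were 817 to 1060 TPM in the model libraries and 1450 to 2110 TPM in the other 6, and the other short genes lay between 15500 and 19800 TPM.

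Short RNAs of other kinds were also summed, but without the limit of 1 TPM. All H/ACA genes, taken by a SNORA name at any length, summed to 1470, 1110 and 1230 TPM in combination libraries. They summed to 797, 735 and 979 TPM in model and 1440, 1490 and 1190 TPM in normal libraries. All other units under 300 bases summed to 18500 to 19500 TPM in combination, 15500 to 17600 TPM in model and 18200 to 19800 TPM in normal libraries. The part of this difference of short RNA as a whole in the results below was not tested. In bulk RNA fewer cells of a type and less RNA per cell cannot be told apart.

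Combination against model libraries addressed how rats given the compounds differed from untreated arthritic rats. In this comparison 27 of the 100 members were higher in the combination group and none was lower (limma, adjusted p under 0.05). Over all units tested 2.41% were higher and 2.07% lower. The median log2 fold change of the members was 0.80 (range -0.30 to 1.93), against 0.03 over all units. The change was above 0 in 96 of 100, and in 56 the groups did not overlap with the combination group higher, as they did in 13.9% of all units. Of the H/ACA genes 12 of 97 were higher (median 0.53), and of the 571 other short units 25 (4.38%) were higher and 2 (0.35%) lower (median 0.32). No test was made of the difference between these classes. The count rests on a spread shared by 9 libraries: without combination 1, combination 2 or combination 3 it was 0, 1 and 17, without model 3 it was 0, without model 1 it was 18, and without normal 1 or normal 2 it was 12. It was 0 with only the 2 groups fitted and 9 without the limit on low levels, while the median stayed at 0.69 to 0.93 without any 1 library. Shares over all units at these settings are not given.

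The 9 members of the chromosome 13 locus went together. Of these 8 were higher in the combination group and in all 9 the groups did not overlap, with changes of 0.76 to 1.93. SNORD75, which guides methylation of the large ribosomal RNA, had 18.4, 19.4 and 18 TPM in combination, 6.10, 2.24 and 4.91 TPM in model and 15.1, 15.7 and 10.5 TPM in normal libraries. Its log2 fold change was 1.93 ± 0.28 (SE, adjusted p = 0.024), the largest of the members. SNORD81 (1.65, adjusted p = 0.0259), SNORD74 (1.35), SNORD77 (1.32) and SNORD79 (1.26) were also higher. The exception was SNORD44, at 40.1, 25 and 32.5 TPM in combination and 16.1, 18.7 and 21.1 TPM in model libraries (0.76, adjusted p = 0.0842). The spliced locus itself was at 245, 315 and 297 TPM in combination, 234, 206 and 245 TPM in model and 222, 215 and 260 TPM in normal libraries, a change of 0.32 between combination and model (adjusted p = 0.201).

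In the chromosome 1 locus 6 of 8 members were higher and in all 8 the groups did not overlap, with changes of 0.82 to 1.59. SNORD26 had 10.6, 9.04 and 8.64 TPM in combination and 3.17, 1.62 and 2.74 TPM in model libraries (1.59 ± 0.29, adjusted p = 0.0296). SNORD30, another guide for the large ribosomal RNA, had 52.1, 41.9 and 36.2 TPM in combination and 17.2, 14.4 and 17.2 TPM in model libraries (1.35 ± 0.21, adjusted p = 0.024). SNORD22 (0.82, adjusted p = 0.0696) and SNORD31 (1.12, adjusted p = 0.0762) did not pass. The locus was at 566, 608 and 562 TPM in combination and 715, 521 and 699 TPM in model libraries (-0.14, adjusted p = 0.655). In all, members of unnamed loci made up 16 of the 27 higher genes (of 27 such members, median 1.08), members of ribosomal protein genes 6 (of 32, median 0.70) and members of other named genes 5 (of 41, median 0.75).

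SNORD14 was present as 4 genes, 3 in introns of Hspa8, which encodes the constitutive heat shock cognate chaperone, and 1 in an unnamed locus on chromosome 1. The Hspa8 gene at 44992796 to 44992879 on chromosome 8 (plus strand) had 8.10, 6.57 and 9.02 TPM in combination, 3.91, 0.39 and 1.39 TPM in model and 10.8, 6.91 and 9.67 TPM in normal libraries. It was higher in the combination group by 1.80 ± 0.39 (adjusted p = 0.0415). The chromosome 1 gene had 6.01, 2.99 and 3.52 TPM in combination, 0.249, 0.674 and 1.14 TPM in model and 4.51, 6.52 and 4.52 TPM in normal libraries (1.61 ± 0.28 between combination and model, adjusted p = 0.0261). At such levels the fold change moves with the pseudocount of 1: with 0.1 it was 2.56 for the chromosome 1 gene and 2.47 for the Hspa8 gene, whose adjusted p was then 0.0564. The other 2 Hspa8 genes had changes of 1.03 and 1.22 and did not pass (adjusted p = 0.0952 and 0.0795).

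Members of protein-coding hosts are given next, and no test was made between members. SNORD57 in Nop56, a guide for the small ribosomal RNA whose host encodes a core protein of the same particle, had 15.0, 7.58 and 7.22 TPM in combination and 4.22, 1.5 and 2.47 TPM in model libraries (1.55 ± 0.34, adjusted p = 0.0432). Of the 3 SNORD58 genes in Rpl17, the gene at 70971277 was higher (1.37, adjusted p = 0.0283) and the most abundant one had 58.3, 32.2 and 39.3 TPM in combination and 25.6, 29.1 and 36.3 TPM in model libraries (0.47, adjusted p = 0.283). SNORD39, second in level among the members, had 73.4, 71.7 and 56.0 TPM in combination and 71.0, 76.0 and 76.2 TPM in model libraries (-0.16, adjusted p = 0.63). In Rpl4, a protein of the large subunit, 2 of 5 members were higher (0.74 to 1.05 over the 5), and in Rack1 and in Fv1 none of 3.

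Hosts that encode translation factors gave single members. SNORD2 in Eif4a2, an RNA helicase of translation initiation, had 16.5, 13.1 and 12.8 TPM in combination, 7.93, 4.8 and 7.57 TPM in model and 10.4, 12.2 and 13.7 TPM in normal libraries (0.98 ± 0.21 between combination and model, adjusted p = 0.04). SNORD51 in Eef1b2, of the elongation factor that recharges its partner with GTP, had 3.60, 3.21 and 3.26 TPM in combination, 1.25, 0.658 and 0.838 TPM in model and 2.37, 3.73 and 3.49 TPM in normal libraries (1.2, adjusted p = 0.0259). Both were higher in the combination than in the model group, with each combination value above each model value. SNORD10 in Eif4a1, another such helicase, had 55.2, 31.4 and 30.8 TPM in combination and 14.3, 14.5 and 34.4 TPM in model libraries, so the groups overlapped (0.93 ± 0.37, adjusted p = 0.147). Its change was close to that of SNORD2, and its difference from its own host, by the fit described below, was 1.6 (adjusted p = 0.00278). SNORD37 in the elongation factor gene Eef2 had 38.4, 34.2 and 31.9 TPM in combination and 23.5, 27.4 and 49.0 TPM in model libraries (0.13, adjusted p = 0.799). For SNORD10 and SNORD37 the highest of the model values was in model 3.

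The Rpl7a copies gave like values at either place, with reads that may be shared between them. The SNORD36 gene at 4868525 had 9.41, 7 and 6.74 TPM in combination and 3.46, 2.45 and 2.96 TPM in model libraries (1.13, adjusted p = 0.0261), and its counterpart at 5460452 had 8.96, 6.50 and 6.69 TPM in combination and 3.19, 2.31 and 2.83 TPM in model libraries (1.14, adjusted p = 0.0261). The SNORD24 genes of both copies, at 34.2, 25.6 and 18.4 TPM and at 31.5, 24.5 and 16.8 TPM in combination libraries and at 22.1, 22.8 and 27.1 TPM and 21.6, 21.9 and 26.3 TPM in model libraries, had changes of 0.08 and 0.02. SNORD24 of the chromosome 13 locus, which has the same name, had 54.8, 43.6 and 52.3 TPM in combination and 22.9, 26.3 and 20.7 TPM in model libraries (1.08 ± 0.16, adjusted p = 0.024).

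**Figure D2:**
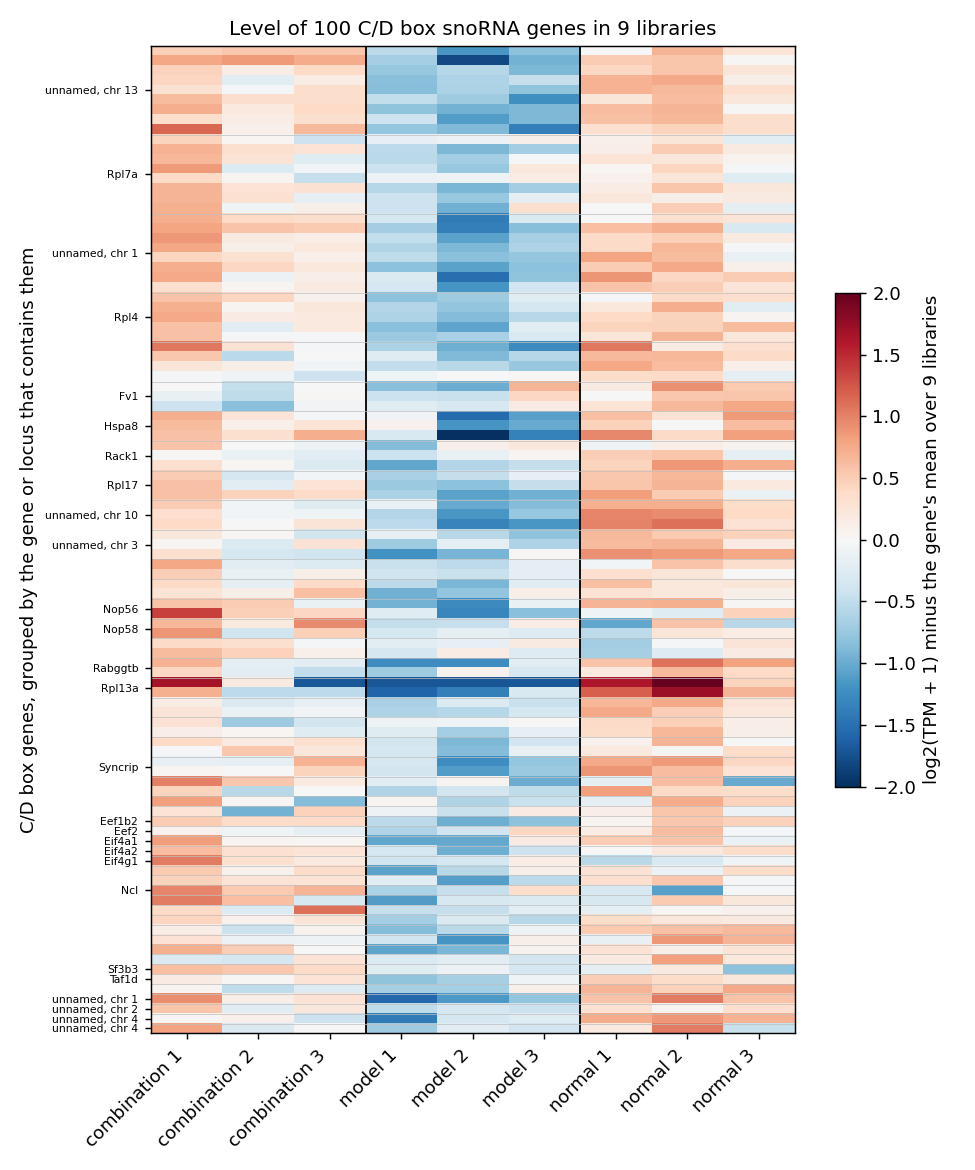
Level of each of the 100 C/D box genes (rows, grouped by host, with both Rpl7a copies together and a part of the hosts labelled) in the 9 libraries (columns), as log2(TPM + 1) minus the gene's mean over the libraries, with red above and blue below the mean. The model columns are mostly blue, and a model library holds the lowest value of 84 rows.

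Model against normal libraries addressed how arthritic rats differed from normal ones. The model libraries are the same as in the comparison above, so the comparisons are not independent of each other. Of the 100 members 48 were lower in the model group and none was higher, beside 2.15% lower and 2.84% higher over all units. The median log2 fold change was -0.95 (range -3.36 to 0.24), against -0.01 over all units. The change was below 0 in 94 of 100, and in 73 the groups did not overlap with the model group lower, as in 14.5% of all units. Of the H/ACA genes 25 of 97 were lower (median -0.60). Of the 571 other short units 19 (3.33%) were lower and 5 (0.876%) higher (median -0.16). Without normal 1, 2 or 3 the count of 48 was 4, 0 and 12, without model 1 or 3 it was 24 and 17, and without combination 2 it was 26. It was 7 with only the 2 groups fitted and 5 without the limit on low levels, while the median lay between -1.03 and -0.86 without any 1 library. Here too the shares over all units at these settings are not given.

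Members of the unnamed loci were lower in 24 of 27 (median -1.27), those of ribosomal protein genes in 15 of 32 (-0.90) and those of other named genes in 9 of 41 (-0.73). All 9 members of the chromosome 13 locus passed (-1.5 to -1.14), as did 7 of 8 of the chromosome 1 locus (-1.47 to -0.88). SNORD78, at 18.7, 22.0 and 19.3 TPM in model and 56.4, 54.9 and 43.7 TPM in normal libraries, changed by -1.32 ± 0.17 (adjusted p = 0.0114). SNORD31, at 17.1, 6.80 and 11.7 TPM in model and 40.0, 28.6 and 30.5 TPM in normal libraries, changed by -1.47 ± 0.33 (adjusted p = 0.0383). A locus on chromosome 10 (48927469 to 48929531, plus strand) held SNORD65, which guides methylation of the small ribosomal RNA, and 2 SNORD49 genes, and all 3 were lower. SNORD65 had 19.1, 10.5 and 12 TPM in model and 56.5, 61.0 and 34.3 TPM in normal libraries (-1.80 ± 0.27, adjusted p = 0.0163), while its locus was at 832, 597 and 735 TPM in model and 658, 561 and 450 TPM in normal libraries. In the locus on chromosome 3 all 3 SNORD12 genes were lower, the gene at 163817252 by the most (-1.54, adjusted p = 0.0304).

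The largest differences of all members were in Rpl13a, which encodes a protein of the large ribosomal subunit, and whose snoRNAs are known from rodent cells for their part in lipotoxic stress. SNORD33, listed as 2 transcripts, had 2.72, 3.35 and 8.12 TPM in model and 24.7, 36.2 and 17.0 TPM in normal libraries (-2.29 ± 0.44, adjusted p = 0.0269). In combination libraries it was at 17.3, 6.82 and 6.82 TPM, which overlaps the model range, and did not pass against them (0.97, adjusted p = 0.195). SNORD34 was listed near 0 in the model libraries, at 0.0043, 0.00504 and 0.00626 TPM, and at 9.08, 23.4 and 3.44 TPM in normal libraries (-3.36 ± 0.80, adjusted p = 0.0453). In combination libraries it was at 9.42, 2.71 and 0.00637 TPM. Its change against normal was -6.44 with a pseudocount of 0.1 and -1.58 with 5, where it no longer passed (adjusted p = 0.0657). SNORD34 is the only member that lies wholly inside a reference exon of a longer transcript, a single-exon Rpl13a transcript of 808 bases. That transcript was at 14.0, 13.1 and 13 TPM in combination, 10.6, 5.44 and 10.9 TPM in model and 23.0, 21.7 and 15.9 TPM in normal libraries, so the reads of the 2 cannot be told apart.

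Both SNORD14 genes described above were lower in the model group, that of Hspa8 at 44992796 with a change of -1.98 ± 0.39 on the log2 scale (adjusted p = 0.0293) and that of chromosome 1 with one of -1.89 ± 0.28 (adjusted p = 0.0153). The Hspa8 gene at 44991645 also passed (-1.48, adjusted p = 0.049). SNORD45 in Rabggtb, a subunit of the enzyme that adds geranylgeranyl groups to Rab proteins, had 2.35, 2.35 and 5.76 TPM in model and 10.8, 15.8 and 12.8 TPM in normal libraries for the gene at 260114173 (-1.72 ± 0.34, adjusted p = 0.028). The second SNORD45 gene of that host had 1.63, 3.54 and 2.45 TPM in model and 3.91, 5.75 and 4.70 TPM in normal libraries (-0.73, adjusted p = 0.139). SNORD46, and SNORD101 and SNORD100 in Rps12, were among those lower, with changes of -1.1 to -1.0. Some members were lower against normal that had not passed between combination and model. SNORD50, present as 2 genes within Syncrip, which encodes an RNA-binding protein, was listed at 0 in model 2 for both. Levels were 0.884, 0 and 0.39 TPM in model and 3.00, 3.30 and 2.16 TPM in normal libraries for the gene at 96169215 (-1.46 ± 0.31, adjusted p = 0.0339). It averaged 0.425 TPM in model libraries and met the limit for testing only through the other groups. SNORD95 in Rack1, a ribosome-bound scaffold, had 3.97, 5.82 and 6.33 TPM in model and 13, 17.6 and 16 TPM in normal libraries for the gene at 34152285 (-1.39 ± 0.22, adjusted p = 0.0189). SNORD5 in Taf1d, a subunit of the initiation factor of RNA polymerase I, had 9.97, 11.1 and 17.1 TPM in model and 25.8, 23.7 and 21.3 TPM in normal libraries (-0.87 ± 0.20, adjusted p = 0.0435). That a member passed in one comparison and not in the other does not show that the changes differ, which was not tested. The 6 members with a change above 0 were SNORD66 in Eif4g1 (0.12), SNORD20 in Ncl (0.24), SNORD111 in Sf3b3 (0.04), SNORD70 in Nop58 (0.08) and both SNORD103 genes (0.08 and 0.10), and none of these passed.

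In the comparison of combination with normal, none of the 100 members passed in either direction, beside 2.62% higher and 1.98% lower over all units. Of the 97 H/ACA genes 2 were higher and 1 lower. At an unadjusted p under 0.05 the counts of members were 5 higher and 12 lower, beside 14.3% of all units higher and 11.8% lower. The median log2 fold change of the members was -0.12 (range -1.60 to 1.2) against 0.04 over all units. The groups did not overlap for 5 members higher and 10 lower in the combination group, against 17.9% of all units each way. A p that misses the threshold does not show that the groups were alike. Members with the largest differences were SNORD34 (-1.60 ± 0.80, adjusted p = 0.235), SNORD33 (-1.31 ± 0.44, adjusted p = 0.105) and SNORD20 (1.2 ± 0.34, adjusted p = 0.0698). SNORD20, within the nucleolin gene Ncl, had 3.48, 2.26 and 2.64 TPM in combination and 0.828, 0.0678 and 1.24 TPM in normal libraries.

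**Figure D3:**
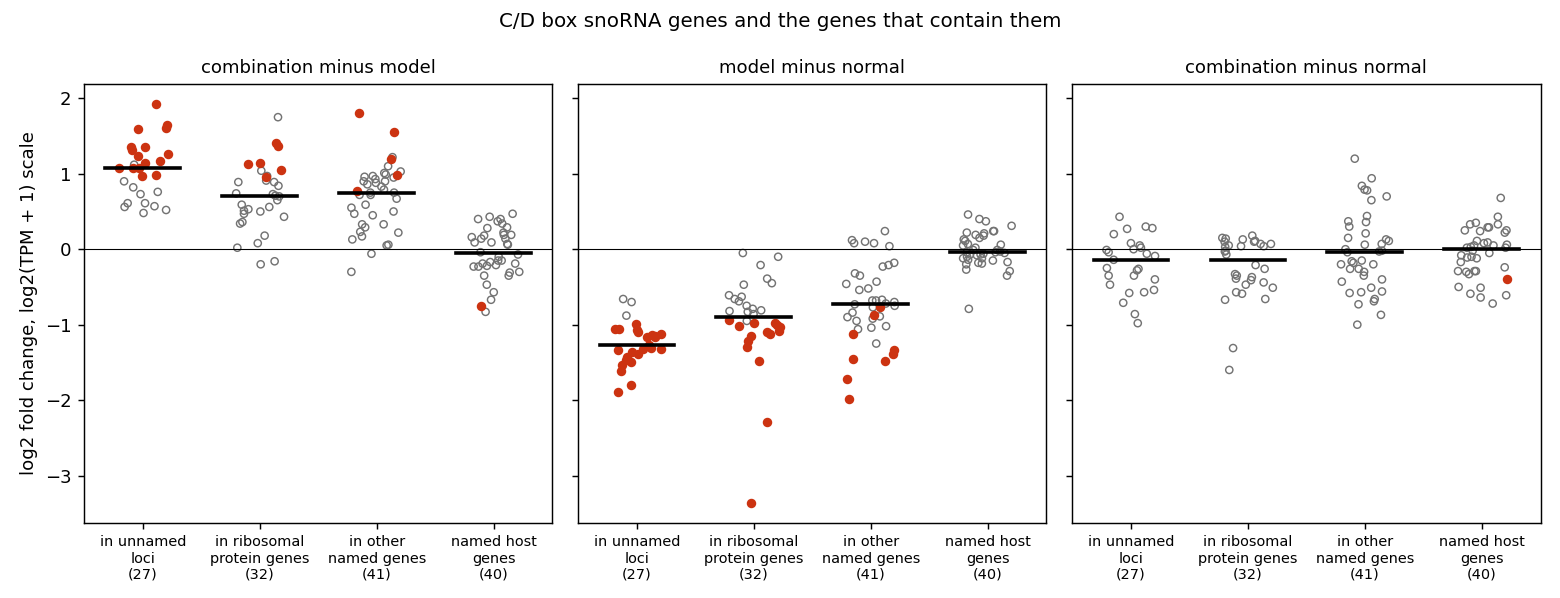
Log2 fold change (vertical axis, log2(TPM + 1) scale) of C/D box genes by the kind of host and of the 40 named hosts, for the 3 comparisons, with 1 point a gene, filled red where the adjusted p was under 0.05, and a bar at the median. The medians of the 3 kinds of members were 0.70 to 1.08 for combination minus model and -1.27 to -0.73 for model minus normal, while those of the hosts were -0.05 and -0.03.

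The host genes were read from the same fit. Of the 40 named hosts none was higher and 1, Nop56, lower in the combination than in the model group (median -0.05), beside 2.07% of all units lower and 2.41% higher, and none passed between model and normal (median -0.03), beside 2.15% lower and 2.84% higher. Between combination and normal 1 was lower (median 0.00), beside 1.98% of all units. The 8 unnamed loci had no call in any comparison. Each snoRNA was therefore set against its own host, as the difference of log2(TPM + 1) levels in each library, in a fit over the 268 pairs of a short gene and a named host. Relative to the host 27 of 73 members were higher in the combination than in the model group and none lower (median difference 0.70), beside 27.6% of the pairs higher and 0.373% lower. In the model group 32 of 73 were lower relative to the host than in the normal group and none higher (median -0.80), beside 29.9% of the pairs lower and 0.373% higher. The background shares include the members, and H/ACA pairs had 25 of 73 higher between combination and model and 26 of 73 lower between model and normal. Between combination and normal no member passed (median -0.08), beside 0.746% of pairs higher and 1.87% lower.

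**Figure D4:**
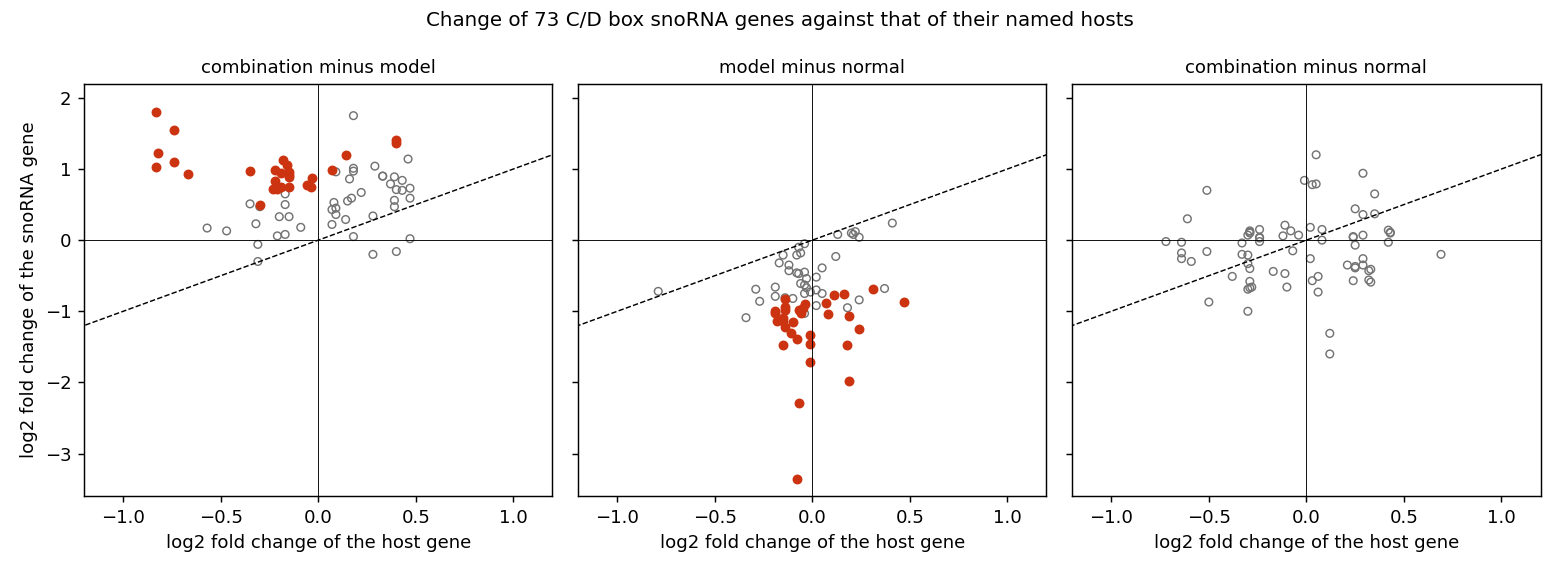
Log2 fold change of the 73 C/D box genes with a named host (vertical axis) against that of the host (horizontal axis) in the 3 comparisons, with 1 point a gene, filled red where the snoRNA-minus-host difference had an adjusted p under 0.05, and a dashed line where both are equal. Points lie mostly above the line for combination minus model (median difference 0.70), below it for model minus normal (-0.80) and on both sides for combination minus normal (-0.08).

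Differences from the host were largest in Hspa8 and Nop56 between combination and model. Hspa8 was at 333, 323 and 206 TPM in combination, 473, 450 and 583 TPM in model and 528, 392 and 407 TPM in normal libraries, and its 3 SNORD14 genes summed to 22.9, 16.4 and 18.8 TPM, 12.7, 2.63 and 4.54 TPM and 23.9, 16.5 and 24.9 TPM in the same groups. The host was thus at its lowest in the combination libraries and the snoRNAs in the model libraries. The snoRNA-minus-host differences between combination and model were 2.63, 2.04 and 1.86 for the 3 genes (adjusted p = 0.00294, 0.00412 and 0.0092). In Nop56, at 100, 84.1 and 78.0 TPM in combination and 129, 136 and 179 TPM in model libraries, SNORD57 had a difference of 2.29 (adjusted p = 0.00294) and SNORD110 of 1.84 (adjusted p = 0.00278). Without combination 1, model 1 or model 2 the 27 pairs were 12, 17 and 16.

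Between model and normal, SNORD34 (-3.28, adjusted p = 0.0152) and SNORD33 (-2.22, adjusted p = 0.0108) differed from Rpl13a. That host was at 3210, 2430 and 2680 TPM in model and 3220, 2650 and 2850 TPM in normal libraries. The SNORD34 difference is uncertain, because its reads cannot be told apart from those of the single-exon Rpl13a transcript that contains it. SNORD14 at 44992796 (-2.17) differed from Hspa8, and SNORD45 at 260114173 (-1.71, adjusted p = 0.00564) from Rabggtb, which was at 154, 187 and 247 TPM in model and 202, 211 and 171 TPM in normal libraries. In Rpl4 the 5 members summed to 119, 79.4 and 81.7 TPM in combination, 43.9, 42.2 and 59.1 TPM in model and at least 88.5 TPM in each normal library, and the host was at 3200 to 3720, 3590 to 4070 and 4070 to 4290 TPM. Without normal 1 or normal 2 the 32 pairs were 20 and 15. With the unnamed loci counted as hosts, a choice made after the data were seen, 45 of 100 members were higher relative to host or locus between combination and model. Between model and normal 58 were lower, and between combination and normal 2 were lower. Of the 211 other short genes paired in this way, 52 were higher between combination and model and 56 lower between model and normal. The 82 H/ACA genes among them had 29 higher and 32 lower.

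**Figure D5:**
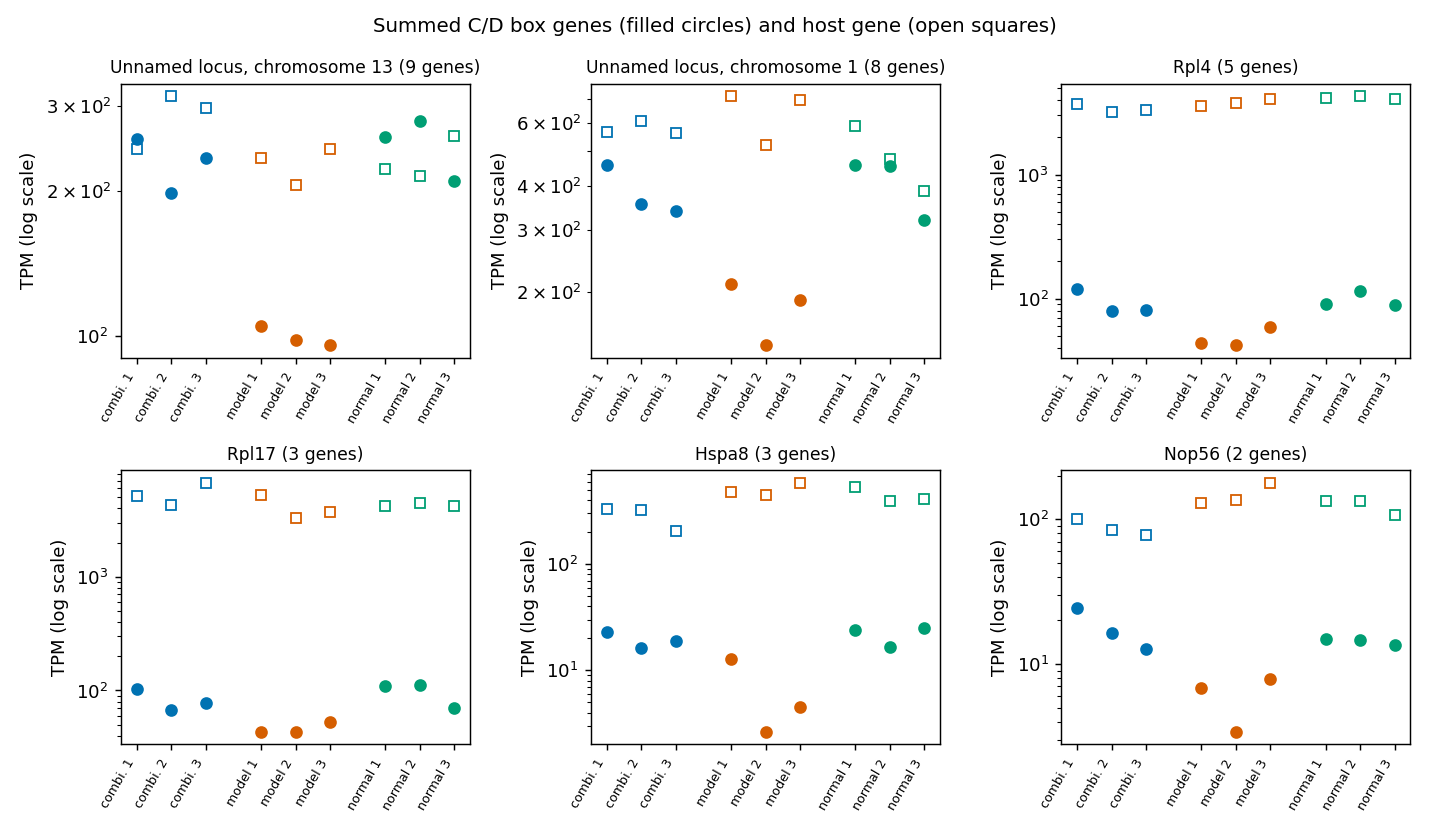
TPM on a log axis in each of the 9 libraries (horizontal axis, combination blue, model orange, normal green) of the summed C/D box genes (filled circles) and of the gene or locus that contains them (open squares), for 6 hosts. In the chromosome 13 locus the snoRNA sum was 95.6 to 105 TPM in the model libraries and 198 to 280 TPM in the other 6, while the locus stayed between 206 and 315 TPM.

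Genes that make C/D box particles or process them were read from the same fit, in which 2.07% of all units were lower and 2.41% higher between combination and model, 2.15% and 2.84% between model and normal, and 1.98% and 2.62% between combination and normal. Of 4 core protein genes measured, 2 were lower in the combination than in the model group (median -0.72) and none passed between model and normal (median 0.18). Fbl, the methyltransferase fibrillarin, averaged 101 TPM in combination, 164 TPM in model and 160 TPM in normal libraries (-0.70 between combination and model, adjusted p = 0.0449), and Nop56 averaged 87.4, 148 and 125 TPM (-0.75, adjusted p = 0.0461). Snu13 averaged 22.2, 40.4 and 22.3 TPM and did not pass (-0.82, adjusted p = 0.051), nor did Nop58. Of 11 assembly and maturation genes, 2 were lower in the combination than in the model group and none higher (median -0.26). They were Nolc1, a nucleolar phosphoprotein that binds snoRNA particles (-0.78, adjusted p = 0.0461), and Ruvbl1, an ATPase of the assembly complex (-0.59, adjusted p = 0.0459). None of the 11 passed between model and normal (median 0.05), and its partner Ruvbl2 was lower in the combination than in the normal group (-0.77, adjusted p = 0.0447). None of 11 genes of debranching and exonucleases passed in any comparison, with medians of 0.01, 0.32 and 0.16 for combination against model, model against normal and combination against normal. Dbr1, the debranching enzyme, averaged 26.4, 27.8 and 28.7 TPM in combination, model and normal libraries, and Exosc10, a nuclease of the nuclear exosome, 34.7, 42.5 and 32 TPM. Of 19 symbols of noncoding snoRNA hosts, 1, Snhg11, was found as a name, at up to 0.0526 TPM.

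Marker genes of other cell types were read against the same shares. Between combination and model 2 of 4 erythroid genes tested were lower, and 3 of 6 monocyte and 2 of 2 platelet genes higher. Between model and normal 3 of 4 erythroid genes were higher and 2 of 2 neutrophil genes lower, while none of the monocyte and platelet genes passed. Between combination and normal 4 of 6 monocyte and 2 of 2 platelet genes were higher and 1 of 2 neutrophil genes lower, and none of the erythroid genes passed. Their part in the snoRNA differences was not tested.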

How the data were processed

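Total RNA of CD4+ T cells was extracted with Trizol and made into libraries with the NEBNext Ultra RNA kit, per the labels' protocols. The authors used bcl2fastq and HISAT2 with rn6, per the submitters' processing notes, and StringTie 1.3.3b, per the file headers, on 1 merged set of 80092 transcripts in each library. The deposited tables hold coverage, FPKM and TPM as other text attributes of each transcript, as the authors' StringTie run wrote them. Counts, read length, fragment size and the use of strand are not given in the sources used here, so no counting interval or floor was derived.

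Transcript TPM was summed per name and locus, and lines were joined across libraries by transcript. Assembled transcripts went to a named gene by exon overlap and never to a SNORD gene. A host was the shortest-spanning named gene of at least 300 bases on the same strand that contained the snoRNA gene. Units with a mean of at least 1 TPM were put, as log2(TPM + 1), through limma 3.58.1 (R 4.3.3), with 1 coefficient per group, an intensity trend and 6 residual plus 3.53 prior degrees of freedom. The tests were two-sided, with p-values adjusted by the Benjamini-Hochberg method over the 14175 units, or the 268 pairs, with 0.05 as the threshold. Fold changes on this scale understate the change of low genes. All adjusted p-values came from limma, and the procedure was tested on simulated data. Tables were read with Python 3.11.15 and pandas 2.3.3. Members, lists and tests were chosen with earlier results of these data known. Members named were the 12 largest changes past the threshold in each direction without overlap, the 10 highest levels, the 5 largest differences from the host, and preset names and clusters; others were chosen after their values were seen. Sequences came from RefSeq (GRCr8), where 35 of 39 host names looked up were matched, and Gas5 was added; no snoRNA sequence was at hand. Alternatives were other pseudocounts, filters, units, scalings, weights, libraries and hosts, and a replicate block. Results of some host genes are not reported here.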

Additional observations from a re-analysis of the deposited data

How the results depend on the processing

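No direction turned under any alternative. For members higher in combination than model, 27, the count was 9 without the filter, 42 with FPKM, 0 with only the 2 groups fitted, and 0 to 22 without 1 library. The median over the 100 members, 0.80, was 0.52 with a pseudocount of 5, and 0.69 to 0.93 without 1 library. For members lower in model than normal, 48, it was 5 without the filter, 7 with only the 2 groups, and 0 to 49 without 1 library, and the median over the 100 members, -0.95, was -0.61 with a pseudocount of 5. Between combination and normal, with none either way, FPKM gave 2 higher and 5 lower, only the 2 groups 1 and 4, array weights 4 and 20 (beside 16.1% and 11.9% of all units), a pseudocount of 5 0 and 1, median-ratio scaling 0 and 3, and omission of 1 library 0 and up to 2. Of the pairs with a host, 27 higher and 32 lower became 45 and 58 with unnamed loci, and 12 to 26 and 15 to 34 without 1 library, with up to 1 lower between combination and model. Between combination and normal array weights gave 1 higher and 2 lower pairs, no filter 1 lower, FPKM 1, unnamed loci 2 and omission of 1 library 0 to 1. The cause was not tested. A share over all units under an alternative is given only for array weights, and counts of other pairs only for unnamed loci. Whether the other counts moved with the whole table cannot be told here. The labels do not say whether equal replicate numbers pair the libraries. The residual correlation of same-numbered libraries was -0.137 to 0.055, and 1 of 9 was closest to its own number. This cannot show that same-numbered libraries were handled apart. With the replicate block the counts were 0 and 17 for members and 25 and 29 for pairs. Depth is known only in bases, so counting error at low levels is unknown.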
